A study of Mus musculus with 48 samples.

Results

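The cholesterol and fatty acid synthesis genes are a set of 34 genes listed by symbol: the enzymes that build cholesterol from acetyl-CoA, the proteins that sense and regulate sterols, carriers that move cholesterol, and enzymes that build fatty acids. Members were the genes with a probe of that symbol in the platform annotation, and 30 of the 34 had one, out of 16593 named genes. Acat2, Mvk, Fdft1 and Npc1 had no probe of that symbol and were not analysed here. The probe for Abca1, a cholesterol exporter, was detected on 0 of 48 arrays, so its level is not given, and 29 genes were tested in each region.

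RNA came from the striatum and the cortex of the same 24 mice of the inbred strain FvB/NJ, and each of the 48 samples was hybridised to its own Illumina bead array. BACHD-ΔN17 mice model Huntington's disease: their bacterial artificial chromosome transgene encodes mutant human huntingtin lacking most of its N-terminal N17 segment, and the wild-type mice of that strain lack the transgene. Tissue was taken whole, with no selection of a cell type. Each genotype was sampled at 2, 7 and 11 months of age, with 4 mice (2 males and 2 females) in each of the 12 groups of region, genotype and age. Values are background-corrected, quantile-normalized log2 intensities, and a difference of 1 on this scale is a doubling of signal. Differences between genotypes are BACHD-ΔN17 minus wild-type, tested with limma over all detected features, and "passed" means a Benjamini-Hochberg adjusted p under 0.05.

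Cholesterol does not cross the blood-brain barrier, so the brain makes its own from acetyl-CoA through mevalonate, squalene and lanosterol. When sterols are scarce in the endoplasmic reticulum membrane, SCAP escorts the transcription factors SREBP-1 and SREBP-2 to the Golgi, where they are cut and released to switch on the genes of sterol and fatty acid synthesis, while INSIG proteins hold SCAP back when sterols are plentiful. In adult brain, astrocytes make much of the cholesterol and pass it to neurons on apolipoprotein E particles, oligodendrocytes use it for myelin, and neurons remove the excess by hydroxylating it.

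Arrays detected 12477 to 14378 probes, and the 8 arrays with the lowest sample numbers detected the fewest, at most 13187. Every striatal array of BACHD-ΔN17 mice aged 7 or 11 months had a number up to 32, so higher numbers give no genotype difference there. The labels do not say whether these numbers follow chips or days. Markers matched the tissue labels: the mean log2 level of 12 genes of striatal projection neurons was at least 12.00 on each striatal array and at most 9.65 on each cortical array.

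In wild-type mice, 12 of the 15 tested enzymes of sterol synthesis were lower in the striatum than in the cortex, while 3 of the 5 fatty acid enzymes and 3 of the 4 tested cholesterol carriers were higher. Over 12 mice, 22 of 29 genes passed, 14 lower and 8 higher in striatum, where 55.2% of all features tested passed, so the share of members that passed is read against a background that is itself large. All 5 tested genes from mevalonate to squalene were lower in striatum. Hmgcs1, the synthase that makes HMG-CoA, had a lowest, median and highest level of 13.16, 13.33 and 13.68 in striatum, against 13.79, 14.00 and 14.20 in cortex. The 2 ranges did not overlap, and the within-mouse difference was -0.58 (SE 0.04, limma adjusted p = 1.91e-13), lower in 12 of 12 mice.

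Of the 10 genes from squalene to cholesterol, 7 were lower in striatum, led by Hsd17b7, a sterol ketone reductase. Hsd17b7 had 10.01, 10.20 and 10.47 in striatum (lowest, median and highest) against 10.71, 10.93 and 11.12 in cortex, a difference of -0.71 (SE 0.05, limma adjusted p = 3.06e-13). Sqle, the squalene epoxidase, and Cyp51, the lanosterol demethylase, differed by -0.66 (SE 0.06) and -0.66 (SE 0.08), each in 12 of 12 mice. Nsdhl, counted among the 7, differed by -0.20 (SE 0.08) but was lower in only 7 of 12 mice. Msmo1, a methylsterol oxidase that strips methyl groups from the sterol ring, went the other way at 0.20 (SE 0.05, limma adjusted p = 0.00155), higher in 11 of 12 mice. That call was lost under scale normalization, and with array numbers 1 to 32 alone the calls of Msmo1, Srebf2 and Npc2 were lost (adjusted p up to 0.128).

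Among the regulators, Srebf1 and Srebf2 differed in opposite directions between the regions. Srebf1, which encodes SREBP-1 and mainly drives fatty acid genes, had 7.45, 8.00 and 8.11 in striatum (lowest, median and highest), against 6.80, 7.33 and 7.67 in cortex, higher in 12 of 12 mice by 0.69 (SE 0.105, limma adjusted p = 1.5e-06). Srebf2, which encodes SREBP-2 and mainly drives cholesterol genes, was lower in striatum in 9 of 12 mice, by -0.25 (SE 0.085, limma adjusted p = 0.0119). Scap, Insig1 and Insig2 did not pass.

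The carriers and the fatty acid genes were mostly higher in striatum. Acly, which makes cytosolic acetyl-CoA from citrate, had 13.20, 13.42 and 13.55 in striatum (lowest, median and highest) against 12.67, 12.76 and 12.88 in cortex, with no overlap and a difference of 0.63 (SE 0.04, limma adjusted p = 4.59e-14). The stearoyl-CoA desaturases Scd2 and Scd1 were higher by 0.42 (SE 0.07) and 0.31 (SE 0.07). Apoe, the main lipid carrier protein of the brain, and Abcg1, a cholesterol exporter, were higher in 12 of 12 mice each, by 0.32 (SE 0.06) and 0.31 (SE 0.07). Npc2, the third carrier counted as higher, differed by 0.38 (SE 0.13) but was higher in only 7 of 12 mice. Stard4, a cytosolic cholesterol shuttle, was lower in 12 of 12 mice, by -0.67 (SE 0.08). Myelin markers were also higher in striatum, with a mean over 12 genes of 11.10 to 11.71 on wild-type striatal arrays, against 9.82 to 10.41 on cortical ones, and their part in these differences was not tested. In whole tissue, fewer cells of a type and less RNA per cell cannot be told apart.

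**Figure D1:**
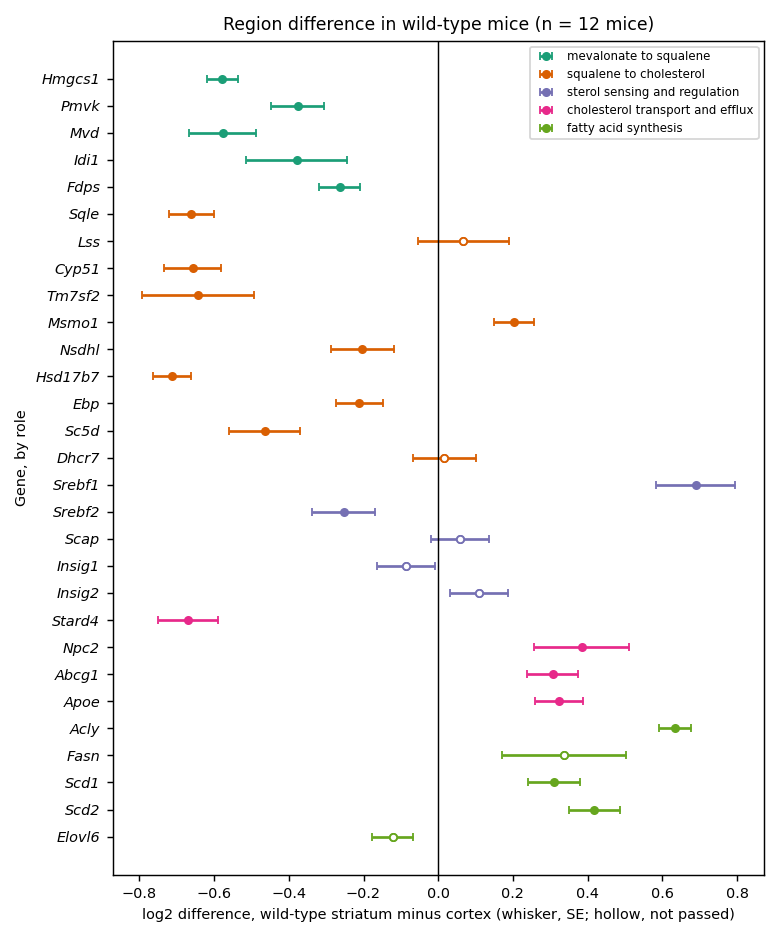
Difference between striatum and cortex in wild-type mice for the 29 tested genes, as log2 striatum minus cortex (horizontal axis) by gene, coloured by role, with whiskers for the SE and hollow points for genes that did not pass. Enzymes from Hmgcs1 to Sqle lie left of 0, while Srebf1 (0.69) and Acly (0.63) lie farthest right.

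Between the genotypes, a minority of the genes passed, at 7 and 11 months only, and most of those were lower in BACHD-ΔN17 mice. Of the 15 tested sterol enzymes, Msmo1 and Cyp51 fell in striatum at 7 months and Msmo1, Mvd and Dhcr7 at 11 months, while Npc2 rose at 7 months and Srebf1 and Apoe at 11 months. In cortex Msmo1 was the 1 enzyme that fell at 7 months, and 5 enzymes fell at 11 months. Of the fatty acid genes, Acly and Scd2 passed, both in striatum. At 2 months, 0 of 29 genes passed in striatum, where 0.00891% of all features passed (1 feature), and 0 of 29 in cortex, where 0% passed. At 7 months in striatum, 6 genes fell and 1 rose, or 24.1% of the members against 12.6% of all features. At 11 months in striatum, 7 fell and 2 rose, or 31% of the members against 18.9% of all features. The median difference of the members there was -0.13, against 0.02 for all features.

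In cortex, 2 genes fell at 7 months, or 6.9% of the members against 1.77% of all features, and 8 fell at 11 months, or 27.6% against 16.1%. No member rose in cortex at any age by this test. The cortical median at 11 months was -0.23 for the members and 0.02 for all features. At 11 months, 11 of the 29 genes (37.9%) passed in at least 1 region, against 28.4% of the 10699 features tested in both. Those that passed in both regions were Msmo1, Mvd, Dhcr7, Srebf2, Stard4 and Apoe, or 20.7% of the members against 6.79% of these features. All but Apoe were lower in both, and Apoe passed in opposite directions.

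**Figure D2:**
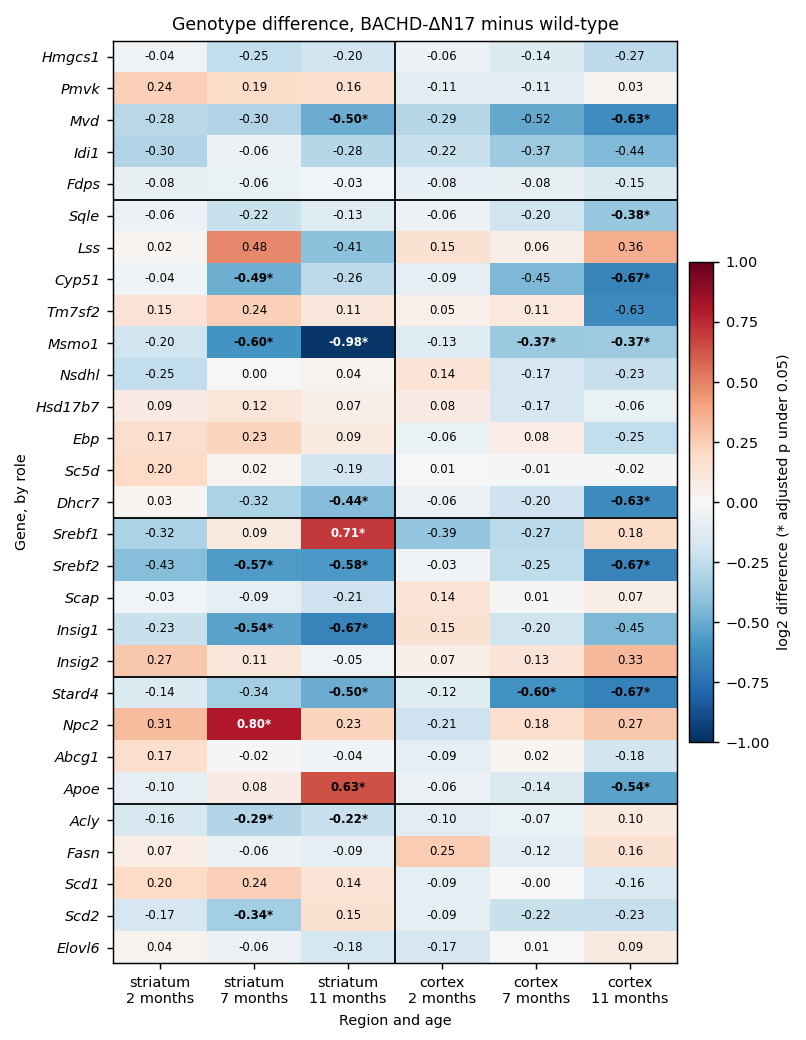
Genotype difference of the 29 tested genes (rows, grouped by role) in striatum and cortex at 2, 7 and 11 months (columns), as log2 BACHD-ΔN17 minus wild-type, with an asterisk where the limma adjusted p was under 0.05. Colour runs from blue (lower in BACHD-ΔN17) to red (higher), and Msmo1 in striatum at 11 months is the deepest blue at -0.98.

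Msmo1 showed the largest genotype difference among the members in striatum, and it was larger at 11 months than at 2 months. At 2 months, Msmo1 had 11.49, 11.65, 11.79 and 11.82 in BACHD-ΔN17 striata, against 11.70, 11.88, 11.97 and 11.99 in wild-type striata. The groups overlapped at that age, and the difference was -0.20. At 7 months, Msmo1 had 10.94, 11.24, 11.27 and 11.27 in BACHD-ΔN17 striata, against 11.62, 11.68, 11.84 and 11.97 in wild-type striata. At 11 months it had 10.57, 10.81, 11.03 and 11.28 in BACHD-ΔN17 striata, against 11.74, 11.83, 11.84 and 12.18 in wild-type striata. The groups no longer overlapped at either of the older ages. Msmo1 fell by 0.60 on the log2 scale at 7 months (SE 0.125, 1.52-fold, limma adjusted p = 0.00163) and by 0.98 at 11 months (SE 0.125, 1.97-fold, limma adjusted p = 1.81e-06).

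Of the other 9 genes between squalene and cholesterol, Cyp51 passed in striatum at 7 months and Dhcr7 at 11 months. Cyp51 had 8.93, 8.99, 8.99 and 9.11 in BACHD-ΔN17 striata at 7 months, against 9.34, 9.47, 9.57 and 9.60 in wild-type striata, and fell by 0.49 (SE 0.13, limma adjusted p = 0.0105). At 11 months the groups for Cyp51 still did not overlap, with a highest BACHD-ΔN17 value of 9.16 and a lowest wild-type value of 9.24, but the difference of -0.26 did not pass. Dhcr7, the reductase that completes cholesterol, had 7.72, 7.80, 7.90 and 8.16 in BACHD-ΔN17 striata at 11 months, against 8.17, 8.25, 8.44 and 8.47 in wild-type striata. The groups for Dhcr7 were separated by a narrow gap, and it fell by 0.44 (SE 0.15, limma adjusted p = 0.0446). Sqle, Lss, Tm7sf2, Nsdhl, Hsd17b7, Ebp and Sc5d did not pass at any age in striatum, with differences at 11 months between -0.41 for Lss, the lanosterol synthase, and 0.11 for Tm7sf2, a sterol reductase.

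In the earlier steps, only Mvd passed in striatum. Mvd, the decarboxylase that makes isopentenyl diphosphate, had 7.01, 7.09, 7.35 and 7.45 in BACHD-ΔN17 striata at 11 months, against 7.64, 7.66, 7.80 and 7.81 in wild-type striata. Its groups did not overlap, and it fell by 0.50 (SE 0.17, limma adjusted p = 0.0413). The remaining tested genes of that stretch, Hmgcs1, Pmvk, Fdps (farnesyl diphosphate synthase) and Idi1 (isopentenyl diphosphate isomerase), differed by -0.20, 0.16, -0.03 and -0.28 and did not pass. Idi1 was detected on 5 of 24 striatal arrays, so its differences are poorly measured.

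Promoter sequence was available from RefSeq (GRCm38.p6) for 26 of the 34 listed genes, with 36 start sites, and was searched on both strands in the 250 bases before each start for 2 motifs. CCAAT is the box bound by NF-Y, a factor that acts beside SREBP at sterol genes, and TCACNCCAC is the core of the sterol response element that SREBP binds, and their matches at the members did not overlap. CCAAT was present before 21 of the 36 member starts (58.3%), against 33.9% of all 32851 starts in the table. TCACNCCAC was present before 1 member start, that of Hmgcs1, against 1.05% of all starts. Only exact matches were counted, with N as any base, so sites with other letters were not searched for. The 180 bases before the start are shown for genes that fell in both regions at 11 months and had an entry, and for Hmgcs1 as the gene with both motifs, read in the direction of transcription with motif matches in capitals (ATTGG is CCAAT on the other strand). Dhcr7 has 3 starts in the table, and the one with CCAAT is shown.
Msmo1 (chr8:64733579-64733758, minus strand): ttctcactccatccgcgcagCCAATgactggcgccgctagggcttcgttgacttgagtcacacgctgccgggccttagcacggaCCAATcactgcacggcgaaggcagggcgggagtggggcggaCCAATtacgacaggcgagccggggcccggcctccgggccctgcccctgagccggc
Mvd (chr8:122443423-122443602, minus strand): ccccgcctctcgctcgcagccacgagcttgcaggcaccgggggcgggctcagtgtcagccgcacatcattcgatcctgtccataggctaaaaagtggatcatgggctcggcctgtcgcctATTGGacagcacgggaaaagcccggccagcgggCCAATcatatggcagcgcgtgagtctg
Srebf2 (chr15:82147089-82147268, plus strand): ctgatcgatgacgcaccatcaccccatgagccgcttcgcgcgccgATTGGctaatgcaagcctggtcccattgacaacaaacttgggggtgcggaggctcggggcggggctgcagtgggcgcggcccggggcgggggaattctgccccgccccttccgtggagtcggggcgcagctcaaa
Dhcr7 (chr7:143830034-143830213, plus strand): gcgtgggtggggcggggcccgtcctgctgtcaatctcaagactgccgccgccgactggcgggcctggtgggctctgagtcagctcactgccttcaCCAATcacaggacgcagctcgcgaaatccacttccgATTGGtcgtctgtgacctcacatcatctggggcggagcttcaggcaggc
Hmgcs1 (chr13:119690171-119690350, plus strand): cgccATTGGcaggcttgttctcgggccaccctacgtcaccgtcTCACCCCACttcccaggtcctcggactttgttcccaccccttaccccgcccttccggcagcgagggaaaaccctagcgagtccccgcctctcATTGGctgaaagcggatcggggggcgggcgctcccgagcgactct
Msmo1 held CCAAT 3 times in this stretch, beginning 160, 96 and 55 bases before the start, while Mvd and Dhcr7 held it 2 times each and Srebf2 once. Hmgcs1, which has the sterol response core 137 bases before its start, did not pass for genotype in either region. A match of letters is not evidence of binding.

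Among the regulators, Insig1 and Srebf2 fell at both older ages in striatum, and Srebf1 rose at 11 months. Insig1, the sterol-dependent anchor of SCAP and itself a target of SREBP, had 8.36, 8.57, 8.57 and 8.73 in BACHD-ΔN17 striata at 7 months, against 8.96, 8.96, 9.21 and 9.24 in wild-type striata. At 11 months Insig1 had 8.27, 8.35, 8.36 and 8.45 in BACHD-ΔN17 striata, against 8.86, 8.98, 9.09 and 9.16 in wild-type striata. The groups were apart at both ages, and Insig1 fell by 0.54 at 7 months (SE 0.12, limma adjusted p = 0.00292) and by 0.67 at 11 months (SE 0.12, 1.59-fold, limma adjusted p = 0.000159). Its 2 other detected probes gave -0.65 (limma adjusted p = 0.000281) and -0.51 (adjusted p = 0.198) at 11 months, and -0.40 (adjusted p = 0.0315) and 0.08 (adjusted p = 0.886) at 7 months, so 1 of them did not follow at 7 months.

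Srebf2 had 8.68, 8.73, 8.76 and 9.05 in BACHD-ΔN17 striata at 7 months, against 9.17, 9.27, 9.49 and 9.57 in wild-type striata. At 11 months it had 8.51, 8.78, 8.79 and 8.87 in BACHD-ΔN17 striata, against 9.11, 9.27, 9.38 and 9.50 in wild-type striata. The groups did not overlap at these ages, and the falls were 0.57 (SE 0.13, limma adjusted p = 0.00513) and 0.58 (SE 0.13, limma adjusted p = 0.00276). At 2 months Srebf2 already averaged 9.12 ± 0.25 in BACHD-ΔN17 striata and 9.55 ± 0.12 in wild-type striata (SD, n = 4 each), a difference of -0.43 that did not pass and in which 1 mouse of each group overlapped.

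The genotype difference of Srebf1 in striatum was more positive at 11 months than at 2 months. At 2 months Srebf1 had 7.48, 7.66, 7.70 and 7.82 in BACHD-ΔN17 striata, against 7.84, 7.98, 8.01 and 8.09 in wild-type striata. All BACHD-ΔN17 values were the lower ones, although the difference of -0.32 did not pass. At 11 months Srebf1 had 8.43, 8.49, 8.57 and 8.59 in BACHD-ΔN17 striata, against 7.45, 7.76, 7.92 and 8.11 in wild-type striata. The groups again did not overlap but in the other order, and Srebf1 rose by 0.71 (SE 0.13, 1.63-fold, limma adjusted p = 0.000306). Scap and Insig2 did not pass at any age in striatum, although another probe of Insig2 gave 0.48 at 7 months (limma adjusted p = 0.0212).

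Of the 4 tested carriers, Apoe rose and Stard4 fell in striatum at 11 months, and Npc2 rose at 7 months. Apoe had 13.50, 13.58, 13.88 and 13.95 in BACHD-ΔN17 striata at 11 months, against 12.91, 13.15, 13.16 and 13.17 in wild-type striata. Every BACHD-ΔN17 value was above every wild-type value, and Apoe rose by 0.63 (SE 0.10, 1.55-fold, limma adjusted p = 5.37e-05). Stard4 had 8.36, 8.46, 8.48 and 8.53 in BACHD-ΔN17 striata, against 8.74, 8.88, 9.07 and 9.11 in wild-type striata. It fell by 0.50 (SE 0.17, limma adjusted p = 0.0389), with no overlap. Npc2, a lysosomal protein that hands on cholesterol released from lipoproteins, had 8.88, 8.88, 9.00 and 9.03 in BACHD-ΔN17 striata at 7 months, against 7.61, 7.87, 8.54 and 8.58 in wild-type striata. The wild-type values were the more spread, and Npc2 rose by 0.80 (SE 0.23, limma adjusted p = 0.0198), but at 11 months it differed by 0.23 and did not pass. Abcg1 did not pass.

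Of the 5 fatty acid genes, Acly fell at both older ages in striatum and Scd2 fell at 7 months. Acly had 13.00, 13.00, 13.12 and 13.27 in BACHD-ΔN17 striata at 7 months, against 13.24, 13.38, 13.39 and 13.55 in wild-type striata, and 13.09, 13.14, 13.15 and 13.16 in BACHD-ΔN17 striata at 11 months, against 13.20, 13.36, 13.41 and 13.46 in wild-type striata. The groups for Acly overlapped at 7 months and not at 11 months, and it fell by 0.29 (SE 0.07, limma adjusted p = 0.00904) and by 0.22 (SE 0.07, limma adjusted p = 0.0337). At 2 months its groups were also apart, at 13.20 to 13.36 in BACHD-ΔN17 striata and 13.43 to 13.53 in wild-type striata, but the difference of -0.16 did not pass. Scd2 had 10.58, 10.70, 10.74 and 10.80 in BACHD-ΔN17 striata at 7 months, against 10.97, 10.98, 11.06 and 11.15 in wild-type striata. Scd2 fell by 0.34 at that age (SE 0.11, limma adjusted p = 0.0426), and at 11 months it lay 0.15 higher and did not pass. Scd1, Elovl6, a fatty acid elongase, and Fasn, the fatty acid synthase, did not pass at any age, and Fasn was detected on only 14 of 24 striatal arrays.

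Groups of 4 that do not overlap were found below wild-type for 5 members at 7 months and 8 at 11 months in striatum, where 9.71% and 11.2% of all features were placed so. Above wild-type they were found for 1 and 2 members, where 8% and 10.9% of all features were. At 2 months in striatum such groups were found below wild-type for 2 members and above for 0, where 1.2% and 0.855% of all features were. With any 1 of the 8 mice left out, Msmo1, Insig1, Srebf2, Srebf1 and Apoe still passed in striatum at 11 months. Acly, Dhcr7, Mvd and Stard4 were near the threshold, with adjusted p up to 0.132, 0.134, 0.125 and 0.116. Acly passed only without wild-type replicate 2, Stard4 only without wild-type replicate 4, Dhcr7 only without replicate 1 of either genotype, and Mvd only without BACHD-ΔN17 replicate 2 or wild-type replicate 3. At 7 months Scd2 passed only without wild-type replicate 4 (adjusted p up to 0.17), and Npc2 did not pass without replicate 4 of either genotype, BACHD-ΔN17 replicate 1 or wild-type replicate 2 (up to 0.109). Under scale normalization, Apoe did not pass at 11 months (0.28, adjusted p = 0.34), and at 7 months only Msmo1 and Npc2 still passed. Srebf2 at 11 months did not pass with array eights as a factor (adjusted p = 0.0538).

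Markers of other cells moved in the same striata. The mean log2 level of the 12 projection neuron genes was 12.00 to 12.18 in BACHD-ΔN17 striata at 11 months, against 12.97 to 13.21 in wild-type striata, and 12 of 12 fell. The mean of 11 astrocyte genes was 10.92 to 11.20 in BACHD-ΔN17 striata, against 10.61 to 10.87 in wild-type striata, with Gfap and Aqp4 higher and Slc1a2 lower among those that passed. The mean of 10 microglia genes was 9.24 to 9.52 in BACHD-ΔN17 striata, against 9.12 to 9.30 in wild-type striata, with 5 higher and 3 lower. At 7 months the projection neuron mean was 12.31 to 12.54 in BACHD-ΔN17 striata, against 13.04 to 13.17 in wild-type striata, and 10 of 12 fell, while 5 of 10 microglia genes rose. At 11 months the mean of the myelin genes overlapped, at 11.14 to 11.60 in BACHD-ΔN17 striata and 11.16 to 11.50 in wild-type striata. At that age 18.9% of all features passed in striatum, and the genes named from the other lists went both ways. Olig1 of myelin cells and Slc2a1 of endothelium rose, while Ugt8a of myelin cells, Bcan of oligodendrocyte precursors and Tek of endothelium fell. The part of these markers in the members' differences was not tested.

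**Figure D3:**
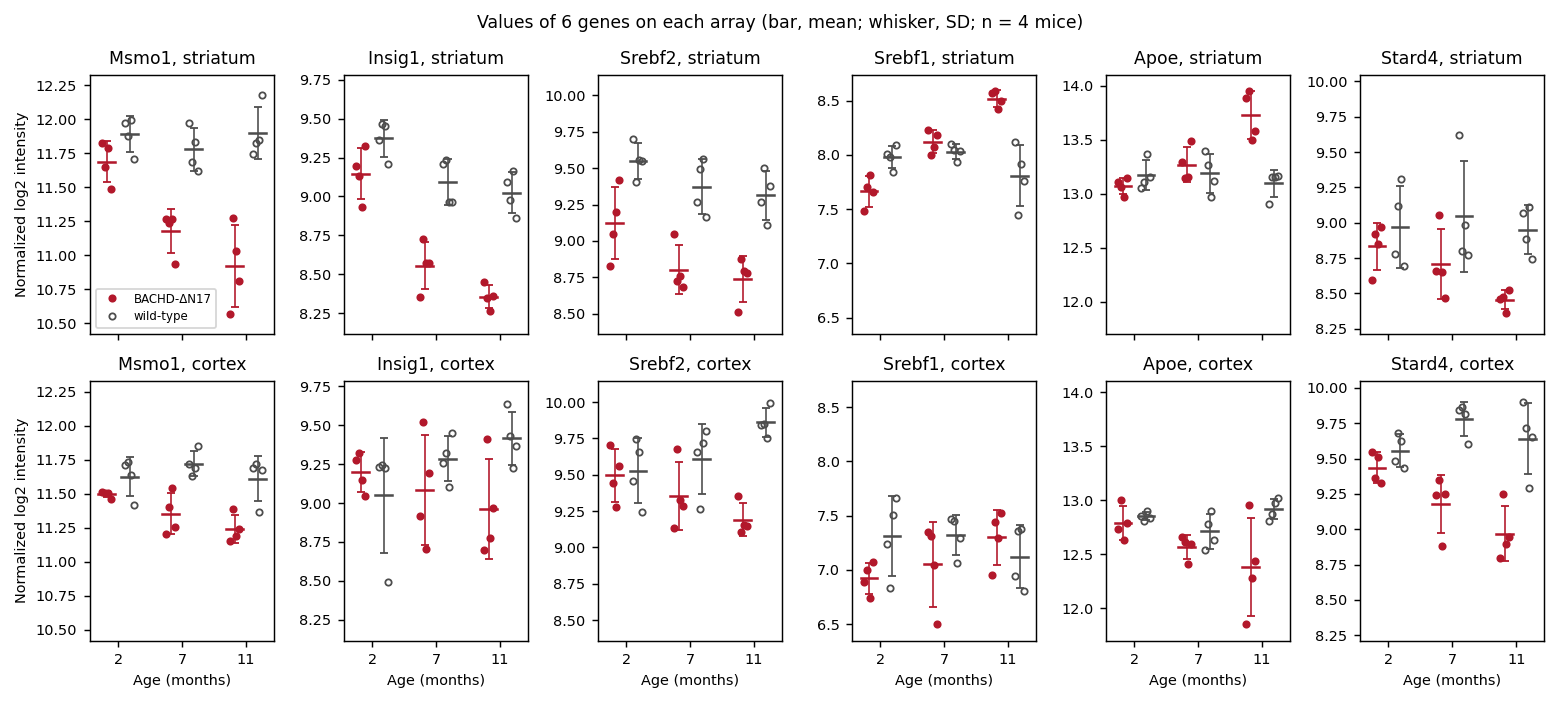
Normalized log2 intensity on each array (vertical axis) for 6 genes in striatum (upper row) and cortex (lower row) at 2, 7 and 11 months, with BACHD-ΔN17 as filled red points left of wild-type as open grey points, bars for the mean and whiskers for the SD of 4 mice. Msmo1, Insig1 and Srebf2 lie lower in BACHD-ΔN17 striata at 7 and 11 months, and Srebf1 and Apoe lie higher at 11 months.

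Whether the genotype difference itself changed with age was tested as the difference at 11 months minus that at 2 months. In striatum, 3 of 29 genes passed, against 6.66% of all features: Srebf1 by 1.03 (SE 0.19, limma adjusted p = 0.000764), Apoe by 0.73 (SE 0.15, limma adjusted p = 0.00163) and Msmo1 by -0.78 (SE 0.18, limma adjusted p = 0.00589). Apoe did not pass there under scale normalization (0.41, adjusted p = 0.507). In cortex, 0 of 29 passed, against 3.97% of all features, and the nearest was Srebf2 at -0.64 (SE 0.19, adjusted p = 0.0544). In wild-type mice, 0 of 29 genes passed between 11 and 2 months in striatum, against 0.134% of all features, and 0 of 29 in cortex, against 0.0181%. The median of the members in wild-type striatum was still -0.115, with 21 of 29 below 0, against -0.00191 for all features. In wild-type striatum the member nearest to the threshold was Nsdhl, a sterol dehydrogenase, at -0.69 (SE 0.15, adjusted p = 0.0569), and 1 member passed there under 5 other settings.

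In BACHD-ΔN17 mice themselves, 10 of 29 genes differed between 11 and 2 months in striatum, against 20.1% of all features. Hmgcs1, Mvd, Sqle, Cyp51, Msmo1, Dhcr7, Srebf2 and Insig1 were lower at 11 months, by 0.39 (Srebf2) to 0.79 (Insig1) on the log2 scale, and Srebf1 and Apoe were higher by 0.85 (SE 0.13) and 0.66 (SE 0.10). Sqle differed with age by -0.505 in BACHD-ΔN17 striata (SE 0.12, limma adjusted p = 0.00338) and by -0.435 in wild-type striata (SE 0.12, adjusted p = 0.186). Hmgcs1 differed by -0.42 in BACHD-ΔN17 striata (SE 0.11, limma adjusted p = 0.00819) and by -0.26 in wild-type striata (SE 0.11, adjusted p = 0.481). For neither gene did the genotype difference, or its change with age, pass. Without 1 mouse, Srebf2 passed for only 2 of 8 mice left out (adjusted p up to 0.179) and Mvd for 3 of 8 (up to 0.111). In BACHD-ΔN17 cortex, 5 of 29 were lower at 11 months than at 2 months, against 14% of all features: Dhcr7, Stard4, Apoe, Cyp51 and Sqle, by -0.57 (Dhcr7) to -0.32 (Sqle). None of these 5 passed with array numbers 1 to 32 alone, and leaving out 1 mouse left between 1 and 5 members passing.

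In cortex, the members that fell at 11 months were 5 enzymes of sterol synthesis, Srebf2, Stard4 and Apoe. Stard4 had 8.80, 8.89, 8.94 and 9.25 in BACHD-ΔN17 cortices, against 9.29, 9.65, 9.72 and 9.90 in wild-type cortices, and fell by 0.67 (SE 0.13, 1.59-fold, limma adjusted p = 0.000695). Srebf2 had 9.11, 9.15, 9.16 and 9.36 in BACHD-ΔN17 cortices, against 9.76, 9.85, 9.85 and 9.99 in wild-type cortices, and fell by 0.67 (SE 0.13, 1.59-fold, limma adjusted p = 0.000991). Neither gene's groups overlapped. Stard4 also fell at 7 months, with 8.88, 9.24, 9.25 and 9.35 in BACHD-ΔN17 cortices, against 9.60, 9.81, 9.85 and 9.86 in wild-type cortices, by 0.60 (SE 0.13, limma adjusted p = 0.00849).

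Among the cortical enzymes, Cyp51 had 9.38, 9.56, 9.59 and 9.80 in BACHD-ΔN17 cortices at 11 months, against 10.05, 10.22, 10.36 and 10.36 in wild-type cortices, and fell by 0.67 (SE 0.13, limma adjusted p = 0.0011). Dhcr7 had 7.31, 7.82, 7.92 and 8.10 in BACHD-ΔN17 cortices, against 8.28, 8.34, 8.42 and 8.60 in wild-type cortices, and fell by 0.63 (SE 0.17, limma adjusted p = 0.0103). Both genes' groups were apart, with 1 BACHD-ΔN17 mouse far below the rest for Dhcr7. Sqle had 11.01, 11.04, 11.10 and 11.33 in BACHD-ΔN17 cortices, against 11.34, 11.47, 11.47 and 11.70 in wild-type cortices, and fell by 0.38 (SE 0.10, limma adjusted p = 0.00722). Its other probe gave 0.04 (adjusted p = 0.911), so the probes of Sqle disagreed.

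Mvd had 7.37, 7.58, 7.94 and 7.97 in BACHD-ΔN17 cortices at 11 months, against 8.07, 8.17, 8.51 and 8.60 in wild-type cortices, and fell by 0.63 (SE 0.21, limma adjusted p = 0.0444). Msmo1 had 11.15, 11.19, 11.24 and 11.39 in BACHD-ΔN17 cortices, against 11.36, 11.67, 11.69 and 11.72 in wild-type cortices, and fell by 0.37 (SE 0.09, limma adjusted p = 0.00535). One wild-type cortex overlapped the BACHD-ΔN17 range for Msmo1, and the Mvd groups were apart. At 7 months Msmo1 had 11.21, 11.26, 11.41 and 11.54 in BACHD-ΔN17 cortices, against 11.63, 11.69, 11.72 and 11.85 in wild-type cortices, and fell by 0.37 (SE 0.09, limma adjusted p = 0.0248). With 1 mouse left out, Mvd passed only without BACHD-ΔN17 replicate 1 or 3 or wild-type replicate 3 (adjusted p up to 0.148). Msmo1 at 7 months did not pass without BACHD-ΔN17 replicate 1 or 4 or wild-type replicate 3 or 4 (up to 0.127). Dhcr7 failed without BACHD-ΔN17 replicate 4 (adjusted p = 0.0597), and Stard4 at 7 months failed without BACHD-ΔN17 replicate 3 (adjusted p = 0.0564). Under scale normalization, Cyp51, Srebf2 and Stard4 were the members that still passed at 11 months in cortex.

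Apoe was lower in BACHD-ΔN17 cortex at 11 months, with 11.85, 12.28, 12.44 and 12.95, against 12.81, 12.88, 12.97 and 13.02 in wild-type cortices. The groups overlapped through 1 BACHD-ΔN17 mouse at wild-type level, and Apoe fell by 0.54 (SE 0.14, limma adjusted p = 0.00789). The mean of the 11 astrocyte genes was also lower there, at 10.49 to 10.63 in BACHD-ΔN17 cortices and 10.73 to 10.92 in wild-type cortices, with Slc1a2 and Aldh1l1 lower, and the mean of the 9 excitatory neuron genes was 10.35 to 10.54 in BACHD-ΔN17 cortices, against 10.64 to 10.86 in wild-type cortices, with 5 of 8 tested lower. Of the other cell types' genes in cortex, 2 of 5 oligodendrocyte precursor genes fell (Bcan by 0.63 and Gpr17 by 0.70), as did 1 of 11 myelin genes (Ugt8a by 0.57) and 1 of 10 microglia genes (Cx3cr1 by 0.73), and 1 of 5 endothelial genes rose (Slc2a1 by 0.49). Over all features tested in cortex at that age 16.1% passed, and the lists with 1 such gene were near or below this share. The mean of 12 projection neuron genes was 8.78 to 9.10 in BACHD-ΔN17 cortices, against 9.32 to 9.57 in wild-type cortices. Those of that list that passed were Pdyn, Ppp1r1b, Scn4b, Drd2, Arpp21 and Rgs9, and all of these fell. The part of these markers in the falls of Apoe and the other members was not tested. Insig1 in cortex at 11 months had 8.70, 8.78, 8.97 and 9.41 in BACHD-ΔN17 mice, against 9.23, 9.37, 9.43 and 9.63 in wild-type mice. That difference of -0.45 (SE 0.18, adjusted p = 0.0862) did not pass, while another probe of Insig1 did (-0.53, limma adjusted p = 0.0329). Srebf1 had 6.95, 7.29, 7.44 and 7.52 in BACHD-ΔN17 cortices, against 6.80, 6.95, 7.36 and 7.38 in wild-type cortices, and the groups overlapped throughout. All 5 fatty acid genes failed to pass in cortex at each age, and Fasn was detected on 6 of 24 cortical arrays. Groups lay fully below wild-type for 3 members at 7 months and 6 at 11 months in cortex, where 4.63% and 8.3% of all features did.

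Whether the genotype difference differed between the regions was tested on within-mouse differences. At 7 months, 0 of 29 genes passed, against 1.91% of all features. At 11 months 2 of 29 passed, against 5.98% of all features. Apoe was the first of these, with a genotype difference 1.17 greater in striatum than in cortex (SE 0.16, limma adjusted p = 1.42e-05), and Msmo1 was the second, at -0.61 (SE 0.13, limma adjusted p = 0.00331). Msmo1 did not pass there with array numbers 1 to 32 alone (-0.38, adjusted p = 0.253). For Srebf1 (0.71 in striatum and 0.18 in cortex) and Insig1 (-0.67 and -0.45), a difference between the regions did not pass, nor did it for Mvd, Dhcr7, Srebf2 or Stard4.

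**Figure D4:**
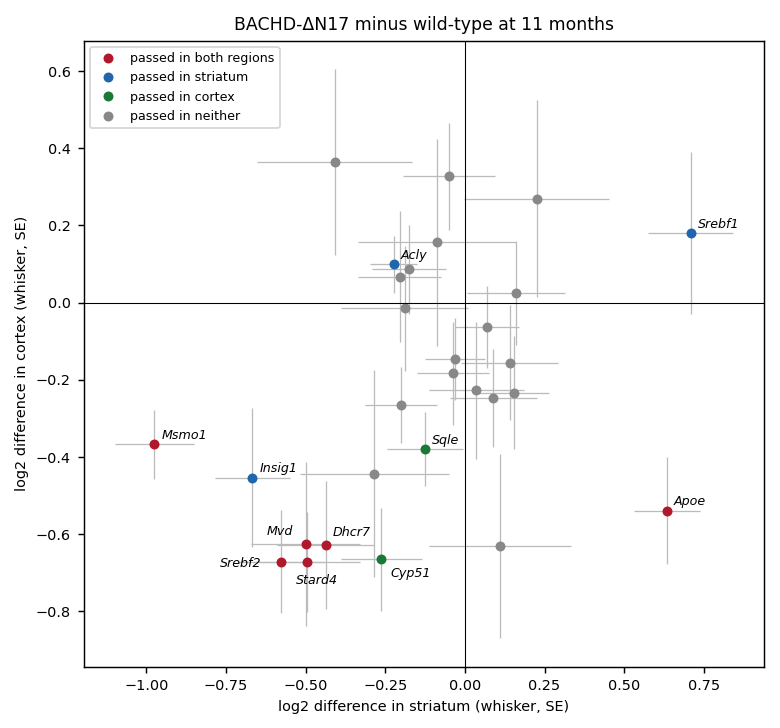
Genotype difference at 11 months in striatum (horizontal axis) and cortex (vertical axis), as log2 BACHD-ΔN17 minus wild-type with SE, for the 29 tested genes, coloured by where they passed. Msmo1, Srebf2, Stard4, Mvd and Dhcr7 lie below 0 in both regions, and Apoe lies at 0.63 in striatum and -0.54 in cortex.

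Other genes of the same or related pathways were counted at 11 months, beside 18.9% of all features passing in striatum and 16.1% in cortex. Of 15 tested genes of sterol removal and transport, 6 rose and 3 fell in striatum (60%). Ch25h, which makes 25-hydroxycholesterol, rose by 3.05 (SE 0.23, limma adjusted p = 2.95e-10), and Abca7, a lipid transporter, rose by 1.13 (SE 0.18). Cyp46a1, the neuronal enzyme that turns cholesterol into 24-hydroxycholesterol for export, fell by 1.09 in striatum (SE 0.15, limma adjusted p = 4.27e-06) and by 0.70 in cortex (SE 0.13, limma adjusted p = 0.000615). Pltp, a phospholipid transfer protein, fell by 0.83 (SE 0.16) in striatum and by 1.14 (SE 0.23) in cortex. In cortex 3 of the 15 rose and 2 fell (33.3%). Those that rose there were Apod by 1.02 (SE 0.20), Ch25h by 0.95 (SE 0.23) and Abca7 by 0.615 (SE 0.145), and those that fell were Cyp46a1 and Pltp.

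Of 14 tested genes of sterol uptake, storage and sensing, 2 fell in striatum at 11 months (14.3%, below the share of all features), Mbtps1, the protease that makes the first cut in SREBP, by 0.485 (SE 0.13, limma adjusted p = 0.0101), and Tmem97, a sterol-regulated membrane protein. Tmem97 also fell in cortex by 0.91 (SE 0.15, limma adjusted p = 0.000139), where 2 of 13 fell and 0 rose (15.4%, also below that share). A further 8 tested genes were listed under sterol synthesis, although some of them serve other isoprenoid products. Of these, Lbr, a sterol reductase of the nuclear envelope, rose by 0.55 (SE 0.11) in striatum. Nus1, a gene of dolichol synthesis, fell by 0.425 (SE 0.11) there, and 0 of the 8 passed in cortex. Of 28 further fatty acid genes, 4 fell and 2 rose in striatum (21.4%), and 4 fell and 0 rose in cortex (14.3%), shares near those of all features. Dgat2, which makes triglycerides, fell by 0.80 in striatum (SE 0.085, limma adjusted p = 9.43e-08) and by 0.45 in cortex (SE 0.12, limma adjusted p = 0.0101), and Slc25a1, the mitochondrial citrate carrier that feeds Acly, fell by 0.67 in striatum (SE 0.12, limma adjusted p = 0.000157). Thrsp, a lipogenic nuclear protein, and Fads2, a fatty acid desaturase, fell by 0.71 (SE 0.15) and 0.63 (SE 0.15) in cortex.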

How the data were processed

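Tissue RNA (100 ng) was amplified and biotin-labelled, per the labels' protocols. The authors deposited bead intensity values per probe and array, not normalized, each with a detection p-value. They also deposited log2 values, which matched the quantile-normalized log2 intensities with no background step (largest gap between sorted values 5e-09), with each of the 48 columns correlating best with its own array. Scanner and scanning software are not given in the sources used here.

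The neqc function (offset 16) corrected the background using the detection p-values, then applied quantile normalization to the 48 arrays together, from limma 3.58.1 in R 4.3.3. Of 25697 probes, 23978 had 1 gene symbol, 0 had several and 1719 had none. Each gene was represented by its brightest probe on average, leaving 18312 features. Testing in a region required a detection p below 0.05 on 4 or more of its arrays, which kept 11225 features in striatum, 11047 in cortex and 11573 between regions. A limma model per region held 6 group means and sex (eBayes with trend), and regions were compared on differences within each of the 24 mice. The Benjamini-Hochberg adjustment covered all features of a comparison. Replicate numbers of the report name mice within a group in accession order. The labels do not say how mice were bred or batched, and with 4 arrays per group the number of mice limits precision. The scripts were tested on simulated data.

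The members, gene lists, tests and named genes (every member, and some of the genes that passed in the other lists) were chosen with earlier results of these data known. The alternatives changed background correction, normalization, filter, probe, array sets, sex, variance trend, samples fitted and pairing. No list was tested as a set. The 2 arrays of a mouse deviated together in 15 of 24 mice (correlation over 0.1, median 0.12).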

Additional observations from a re-analysis of the deposited data

Results flagged for a closer look

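Of 52 groups of 4 mice checked, 3 held a value far from the other 3, and chance flags about 5% of groups. Msmo1 in BACHD-ΔN17 striatum at 7 months had 10.939 in replicate 4, with the others at 11.239 to 11.266. Msmo1 in wild-type cortex at 11 months had 11.363 in replicate 3, with the others at 11.672 to 11.716. Apoe in wild-type striatum at 11 months had 12.908 in replicate 1, with the others at 13.151 to 13.167. Msmo1 and Apoe still passed in those comparisons with any 1 mouse left out.

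The genotype difference changed between 2 and 11 months in striatum for Srebf1 by 1.026 (limma adjusted p = 0.000764), Apoe by 0.734 (0.00163) and Msmo1 by -0.775 (0.00589). These 3 changes still passed with any 1 of 16 mice left out. Apoe at 11 months differed between striatum and cortex by 1.172 (limma adjusted p = 1.42e-05) and Msmo1 by -0.607 (0.00331), each still passing with any 1 of 8 mice left out.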

How the results depend on the processing

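Of 68 gene values that passed, 24 passed under each alternative setting and without each mouse, and 49 passed without each mouse. No called gene turned its direction except with the second-brightest probe, which gave 0.083 for Insig1 in striatum at 7 months and 0.037 for Sqle in cortex at 11 months, neither passing. Members passing in striatum at 7 months (7) were 2 under scale normalization. In striatum at 11 months (9) they were 5 with no detection filter, 5 with array eights as a factor and 5 to 6 without 1 mouse (5 without BACHD-ΔN17 replicate 3 or 4). For wild-type striatum with age (0), 1 passed with no background correction, the authors' values, the half-array filter, no sex term or no variance trend, and 0 to 1 without 1 mouse (1 without the 2-month replicate 4). For BACHD-ΔN17 striatum with age (10), 6 passed under scale normalization. In cortex at 7 months (2), 0 passed under scale normalization, 1 with array eights, array numbers 1 to 32, no trend or only the groups compared, and 1 to 3 without 1 mouse (1 without BACHD-ΔN17 replicate 1, 3 or 4 or wild-type replicate 3 or 4). In cortex at 11 months (8), 3 passed under scale normalization, 4 with array numbers 1 to 32, 5 without array numbers 1 to 8 and 3 with only the groups compared, and 6 to 9 without 1 mouse. For the cortical change with age (0), 0 to 3 passed without 1 mouse (3 without the 11-month BACHD-ΔN17 replicate 2, and 1 without 11-month BACHD-ΔN17 replicate 1, 11-month wild-type replicate 3 or 2-month BACHD-ΔN17 replicate 3). For BACHD-ΔN17 cortex with age (5), 3 passed with no filter, the second-brightest probe or no trend, 2 with array eights, 0 with array numbers 1 to 32, and 1 to 5 without 1 mouse (all but the 11-month replicate 2 gave 3 or fewer). For the region difference at 11 months (2), 1 passed with array numbers 1 to 32. The causes were not tested.

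Label numbers did not pair mice across genotypes at 2 or 7 months (correlations -0.383 to 0.042). At 11 months the genotypes shared no label number, so pairing could not be examined there. With them as a replicate block, 0 members passed for the striatal change with age, 1 in cortex at 7 months, 3 in cortex at 11 months and 1 for BACHD-ΔN17 cortex with age. Because no number was shared at 11 months, the block overlapped with genotype there, and these counts cannot separate block from genotype at that age. Scale normalization moved the median of all features to -0.13 in striatum at 11 months, where 17.2% of calls were higher against 46.2%, and the members' median minus that of all features was -0.13. It moved the median of all features to -0.13 for the striatal change with age, 0.12 for wild-type striatum, -0.23 for wild-type cortex and -0.18 for BACHD-ΔN17 cortex with age, and -0.17 for the region difference. Its share of higher calls was also 20% against 35.8% for the striatal change with age, 80% against 66.7% for wild-type striatum with age, 48.8% against 33.7% for the cortical change with age, 6.9% against 50% for wild-type cortex with age, 9.8% against 41.2% for BACHD-ΔN17 cortex with age, and 22.2% against 48% for the region difference at 11 months. Within array numbers 33 to 48, cortex had 1 BACHD-ΔN17 and 2 wild-type arrays at 7 months, and as many at 11 months. The members' median genotype difference there was -0.12 at 7 months and -0.32 at 11 months, so each value rests on 1 BACHD-ΔN17 mouse. Striatum gives no value at these ages within those numbers. Fasn, Idi1 and Abca1 lie near or below the detection limit.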

Other observations

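The genes whose levels followed a member most closely over the 24 arrays of a region were mostly no members. In striatum, Msmo1 was followed by Scn4b, a sodium channel subunit of projection neurons, with Pearson r of 0.93, and Insig1 by Lynx1, a modulator of nicotinic receptors, with 0.93. Hmgcs1 had the member Sqle among its 3 closest genes in striatum (r = 0.79), and Srebf2 had the member Cyp51 in cortex (r = 0.82). These arrays share genotype, age and processing, so the correlations describe them and were not tested.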
